A study of Oryza sativa Japonica Group with 20 samples.

Results

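The 9 phenylalanine ammonia-lyase loci of rice were followed through root and shoot RNA of seedlings exposed to arsenite. They are the loci carrying the MSU identifiers LOC_Os02g41630, LOC_Os02g41650, LOC_Os02g41670 and LOC_Os02g41680 on chromosome 2, LOC_Os04g43760 and LOC_Os04g43800 on chromosome 4, and LOC_Os05g35290, LOC_Os11g48110 and LOC_Os12g33610 on chromosomes 5, 11 and 12. The members were taken by these identifiers and not by a threshold on their values. All 9 were found among the 57624 loci of the mRNA tables, and the RefSeq table used here lists none of these identifiers, so they are called by locus. The seedlings were of the japonica cultivar Nipponbare, 14 days old, and grew in a half-strength Hoagland nutrient solution. Sodium arsenite, a trivalent arsenic salt, was added at lights-on at 20 or 80 µM, and roots and shoots were taken after 6 h and 24 h; the untreated plants of each tissue were taken at 0 h. This gives 5 conditions per tissue and 10 mRNA libraries, with 1 library per group, so no value has a replicate. The series lists no untreated samples of the 6 h and 24 h harvests. In differences from untreated plants, treatment and time since 0 h therefore cannot be told apart.

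Phenylalanine ammonia-lyase removes ammonia from phenylalanine to give trans-cinnamate, the first committed step of phenylpropanoid metabolism. Cinnamate 4-hydroxylase and 4-coumarate:CoA ligase carry the product on to coumaroyl-CoA, from which plants make lignin, flavonoids and many defence compounds. In grasses the lyase is encoded by a small gene family whose members are used to different extents in different organs and under stress.

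The values are RPKM, in which the authors divided the reads of a locus by its length and by the total of its library. Levels of different loci can therefore be set beside each other. The loci that share chromosome 2 or chromosome 4 are close relatives, and how reads common to such copies were assigned is not known here, so the split between them is uncertain. The 10 libraries summed to between 313836 and 369084 RPKM. Between 8016 loci, in roots at 80 µM and 6 h, and 12515 loci, in untreated roots, reached 5 RPKM. Relative to untreated roots, 1 read was worth between 0.642 and 1.38 times as much in the other libraries. LHY, a dawn-phase clock gene, minus the mean of the day-phase clock genes GI, PRR1 and PRR95 was 1.88 (log2) in untreated roots and −1.40, −2.14, 1.36 and −1.79 at 20 µM 6 h, 80 µM 6 h, 20 µM 24 h and 80 µM 24 h. In shoots it was 3.36 untreated and 3.06, −0.03, −0.02 and 6.44 in the same order. The shoot libraries labelled 20 µM 6 h and 20 µM 24 h thus went against their labelled hours, and their file headers carry each other's codes. Both are called by their labels below. Among roots, the library at 80 µM 24 h read like those at 6 h and unlike the untreated and 20 µM 24 h libraries. Whether its hour or its treatment had a part in this was not tested. The summed RPKM of 6 leaf markers was 287.0 in untreated roots, 12.9 to 54.9 in treated roots and 1966.2 to 4510.7 in shoots, with none of the 6 listed at 0. That of 6 root markers was 1241.8 in untreated roots, 421.1 and 838.3 in roots at 20 µM after 6 h and 24 h, 7.8 and 15.5 in roots at 80 µM, and 11.8 to 76.7 in 4 of the shoot libraries. In the shoot library labelled 20 µM 6 h it was 357.6. The nicotianamine synthase genes NAS1 and NAS2 held 189.9 and 158.7 RPKM of this, and the other root markers stood at 7.5 RPKM or lower. Of the 6 root markers, 1 or 2 were listed at 0 in each shoot library and 1 in roots at 80 µM 6 h.

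Of the 9 loci, 8 reached 5 RPKM in at least 1 library. LOC_Os11g48110 was listed at 0 in all 10 libraries. LOC_Os02g41630 was the most abundant member in 4 of 5 root libraries and in all 5 shoot libraries. It stood at 468.9 RPKM in untreated roots and at 448.6, 414.7, 505.6 and 301.7 RPKM in roots at 20 µM 6 h, 80 µM 6 h, 20 µM 24 h and 80 µM 24 h, an order kept for every series of values below. Untreated shoots held 322.2 RPKM of it and treated shoots 487.6, 428.7, 371.5 and 242.0 RPKM. In untreated roots 3 loci of the whole table stood higher, which puts it at rank 4. LOC_Os02g41650 stood at a lower level, with 217.6 RPKM in untreated roots and 269.2, 282.7, 325.0 and 138.8 RPKM in treated ones. In roots both loci were highest at 20 µM 24 h and lowest at 80 µM 24 h. At 6 h LOC_Os02g41650 lay above its untreated root level and LOC_Os02g41630 below its own. The shoot values of LOC_Os02g41650 were 151.4 RPKM untreated and 160.4, 158.6, 162.6 and 111.9 RPKM treated. The log2 range of LOC_Os02g41630 was 0.74 over the 5 root libraries, where 5.2% of measured genes had a smaller one, and 1.01 over the 5 shoot libraries, where 28.7% did. That of LOC_Os02g41650 was 1.22 in roots, where 20.4% had a smaller one, and 0.54 in shoots, where 6.5% did. The median range of all genes was 1.98 in roots and 1.47 in shoots.

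The other pair of chromosome 2 and LOC_Os05g35290 were abundant in roots. LOC_Os02g41670 stood at 122.2 RPKM in untreated roots and at 167.2, 93.2, 332.7 and 52.6 RPKM in treated roots, but at 6.5 RPKM in untreated shoots and 10.1, 3.4, 4.4 and 3.7 RPKM in treated shoots. LOC_Os02g41680 stood at 146.7 RPKM in untreated roots and at 238.3, 223.2, 352.5 and 110.3 RPKM in treated ones, against 29.0, 28.2, 25.4, 27.2 and 43.7 RPKM in shoots. These are neighbours, with no locus listed between them in the tables, while 1 locus lies between each of the other chromosome 2 neighbours and reaches at most 0.9 RPKM. LOC_Os05g35290 stood at 153.3 RPKM in untreated roots and at 401.7, 570.7, 444.1 and 166.0 RPKM in treated roots. In shoots it was at 11.2, 14.6, 12.7, 6.4 and 24.2 RPKM. For each of these 3 loci the lowest root library lay above the highest shoot library.

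LOC_Os12g33610 was nearly confined to the shoot libraries. It was listed at 0.3 RPKM in untreated roots and in roots at 20 µM 6 h and at 0 in the other 3 root libraries. Untreated shoots held 43.7 RPKM of it and treated shoots 65.0, 19.0, 21.8 and 144.2 RPKM. The chromosome 4 loci were found in both tissues. LOC_Os04g43760 stood at 67.7, 72.5, 11.0, 38.6 and 11.6 RPKM in roots and at 52.1, 28.6, 50.6, 51.5 and 17.1 RPKM in shoots. LOC_Os04g43800 stood at 6.4, 16.5, 1.2, 21.4 and 6.1 RPKM in roots and at 2.7, 7.6, 1.3, 7.5 and 16.6 RPKM in shoots. The ranges of the tissues overlapped for both.

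**Figure D1:**
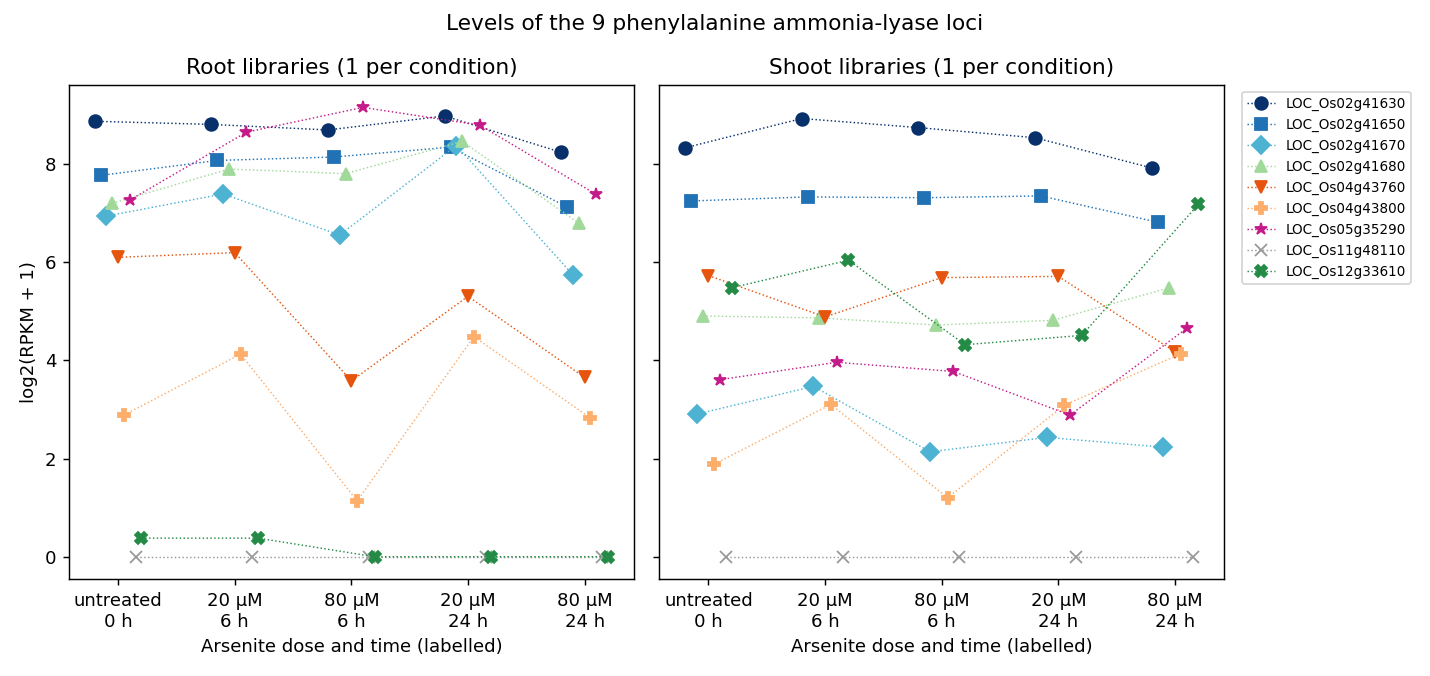
Level of each of the 9 loci as log2(RPKM + 1) (vertical axis) in the 5 root and the 5 shoot libraries (horizontal axis, labelled dose and time), 1 point per library, with dotted lines only to guide the eye. LOC_Os02g41670, LOC_Os02g41680 and LOC_Os05g35290 stand higher in roots than in shoots, LOC_Os12g33610 stands in shoots, and LOC_Os11g48110 is listed at 0 throughout.

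By mean level the order in roots was LOC_Os02g41630 (427.9 RPKM), LOC_Os05g35290 (347.2 RPKM), LOC_Os02g41650 (246.7 RPKM), LOC_Os02g41680 (214.2 RPKM), LOC_Os02g41670 (153.6 RPKM), LOC_Os04g43760 (40.3 RPKM) and LOC_Os04g43800 (10.3 RPKM). Each of these overlapped with the next in its range over the 5 libraries, but within libraries the order varied less. LOC_Os02g41680, LOC_Os02g41670 and LOC_Os04g43760 each stood above the next locus in 5 of 5 root libraries. LOC_Os02g41630, LOC_Os05g35290 and LOC_Os02g41650 each did so in 4 of 5. In shoots LOC_Os02g41630 (370.4 RPKM) stood clear of LOC_Os02g41650 (149.0 RPKM) in every library. LOC_Os12g33610 (58.7 RPKM), LOC_Os04g43760 (40.0 RPKM) and LOC_Os02g41680 (30.7 RPKM) came next, each overlapping in range with the one before it. The range of LOC_Os02g41680 lay above that of LOC_Os05g35290 (13.8 RPKM), which overlapped with that of LOC_Os04g43800 (7.1 RPKM), as this did with that of LOC_Os02g41670 (5.6 RPKM).

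Shoots and roots were compared within the 5 conditions with limma on log2(RPKM + 1), adjusted by Benjamini-Hochberg over 18667 genes that reached 5 RPKM in a library. The residual of this fit, with 4 degrees of freedom, measures how the tissue difference varies over conditions and not a spread between replicates. Of the 8 members tested, 3 were called lower in shoots, as were 12.4% of all genes, and 1 higher, as were 16.4%. LOC_Os05g35290 had a mean shoot minus root difference of −4.47 ± 0.47 (SE, log2), a fold of 22.2 on this scale, with an adjusted p of 8.37e-05. LOC_Os02g41670 had −4.37 ± 0.41 (SE), 20.7-fold, with an adjusted p of 5.3e-05. LOC_Os02g41680 had −2.68 ± 0.39 (SE), 6.39-fold, with an adjusted p of 0.000561, which was 0.0479 without the shoot libraries labelled 20 µM. These 3 were lower in shoots in 5 of 5 conditions. LOC_Os12g33610 had a difference of 5.36 ± 0.47 (SE) in the other direction, also in 5 of 5 conditions, but it passed the filter through the shoot libraries alone and had to differ; the size depends on the pseudocount, from 3.30 with 5 to 7.99 with 0.1. Among the 7 members at 5 RPKM in both tissues, 3 were called lower in shoots and 0 higher. Over all 12155 such genes, 9.4% were called lower and 10.9% higher.

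The remaining members showed smaller tissue differences that did not pass the test. LOC_Os02g41650 lay lower in shoots in 5 of 5 conditions, with a mean of −0.68 and a 95% interval from −1.31 to −0.05 (limma adjusted p 0.102). LOC_Os02g41630 had −0.23, with an interval from −0.83 to 0.37, and LOC_Os04g43800 had −0.41, with an interval from −1.43 to 0.61. For LOC_Os04g43760 the mean was 0.27, with an interval from −0.77 to 1.31. Its differences of single conditions ran from −1.31 at 20 µM 6 h to 2.10 at 80 µM 6 h. The former rests on a shoot library labelled 20 µM and carries the doubt on its hour.

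**Figure D2:**
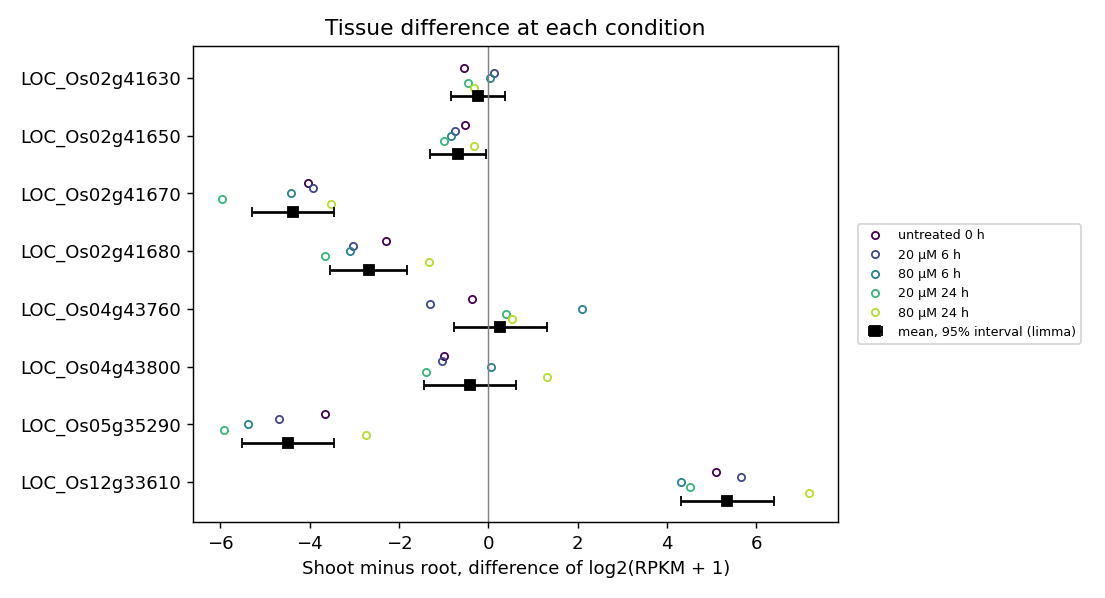
Shoot minus root difference of log2(RPKM + 1) (horizontal axis) for the 8 members tested (vertical axis), with 1 open circle per condition and a black square for the limma mean with its 95% interval. The intervals of LOC_Os02g41650, LOC_Os02g41670, LOC_Os02g41680 and LOC_Os05g35290 lie below 0, though LOC_Os02g41650 was not called after adjustment. That of LOC_Os12g33610, which passed the filter through the shoot libraries alone, lies above 0.

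Together the 9 loci made up a larger part of the root than of the shoot libraries. Their summed level was 1183.1 RPKM in untreated roots, 1614.3, 1596.7 and 2019.9 RPKM in roots at 20 µM 6 h, 80 µM 6 h and 20 µM 24 h, and 787.1 RPKM at 80 µM 24 h. In shoots it ran from 603.4 RPKM at 80 µM 24 h to 802.1 RPKM in the library labelled 20 µM 6 h, with 618.8 RPKM untreated. The lowest root library thus lay just below the highest shoot library. The sum came to between 0.179% and 0.618% of all RPKM.

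The makeup of the sum differed between libraries. LOC_Os05g35290 held 13.0% of it in untreated roots and 24.9%, 35.7%, 22.0% and 21.1% in treated roots. LOC_Os02g41630 held 39.6% in untreated roots, 27.8%, 26.0% and 25.0% in the first 3 treated libraries and 38.3% at 80 µM 24 h. The share of LOC_Os02g41650 stayed between 16.1% and 18.4% in roots. In shoots LOC_Os02g41630 held 52.1% untreated, 56.9% to 61.3% in 3 treated libraries and 40.1% at 80 µM 24 h. LOC_Os12g33610 held 7.06% in untreated shoots, 8.10%, 2.72% and 3.34% in the first 3 treated libraries and 23.9% at 80 µM 24 h.

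**Figure D3:**
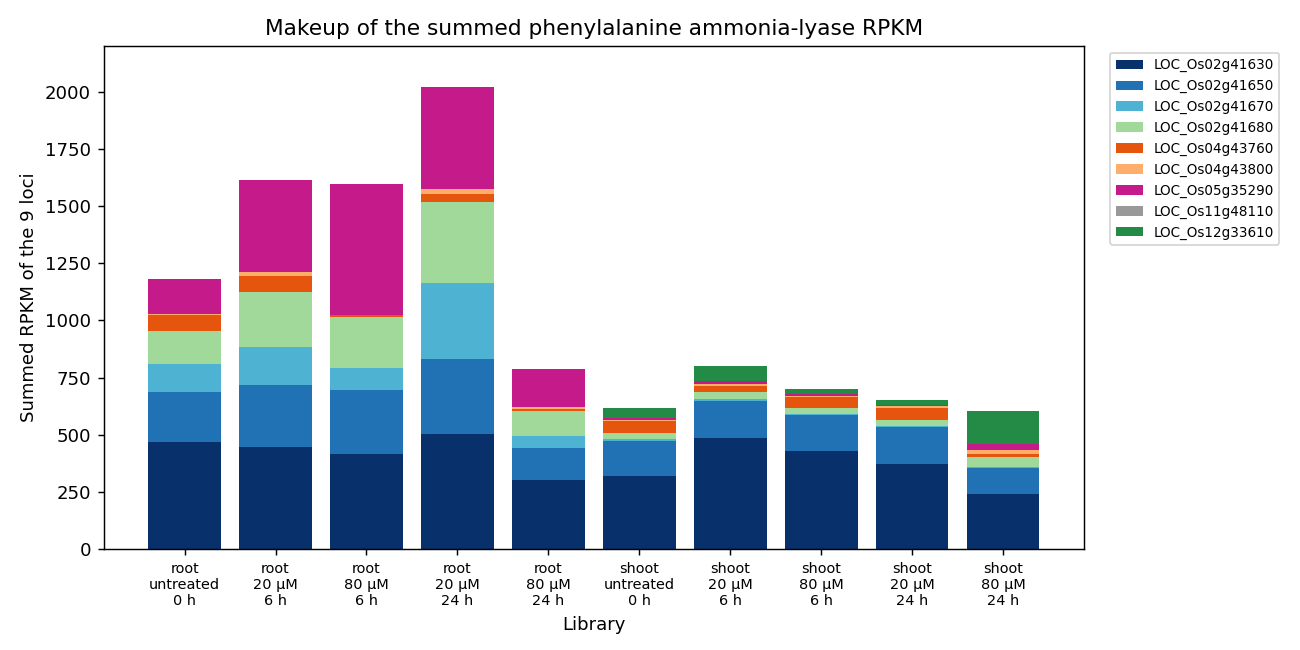
Summed RPKM of the 9 loci (vertical axis, from 0) in each of the 10 libraries (horizontal axis), split by locus in colour. The root library at 20 µM 24 h has the highest sum, 2019.9 RPKM, and the shoot library at 80 µM 24 h the lowest, 603.4 RPKM, with a wide band of LOC_Os12g33610.

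In treated roots the members parted from each other, and none was at least 2-fold higher or lower in all 4 treated libraries. Over all 15414 root genes measured, 4.66% were higher and 6.97% lower by that rule. The 4 differences share 1 untreated library and have no replicate check, so they are descriptions. Fewer cells of a type and less RNA per cell cannot be told apart in these whole organs. Untreated roots were taken at 0 h, with a clock readout of 1.88 against −1.40, −2.14, 1.36 and −1.79 in treated roots. The part of harvest hour in the differences was not tested. LOC_Os05g35290 was 2.61-, 3.70- and 2.88-fold higher at 20 µM 6 h, 80 µM 6 h and 20 µM 24 h on the log2(RPKM + 1) scale, but 1.08-fold at 80 µM 24 h. It was the 1 member of 7 above its untreated level in all 4 treated root libraries, where 16.1% of genes were. Without the 80 µM 24 h library the 2-fold rule counted it. Relative to the median gene, LOC_Os02g41680 lay above untreated in all 4 as well, though by 0.06 (log2) at 80 µM 24 h.

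The root library at 20 µM 24 h had the highest level of 5 members. There 4 of 7 measured members were at least 2-fold higher than untreated, against 11.4% of genes, and 0 were lower, against 16.6%. These were LOC_Os04g43800 (3.03-fold), LOC_Os05g35290, LOC_Os02g41670 (2.71-fold) and LOC_Os02g41680 (2.39-fold). At 20 µM 6 h, 2 of 7 were higher, against 13.6% of genes, and 0 lower, against 16.9%. The summed leaf markers were at 54.9 and 32.3 RPKM in these libraries against 287.0 untreated; the part of this in the differences was not tested.

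At 80 µM the members lay on both sides of the untreated level. After 6 h, 1 of 7 was at least 2-fold higher, against 19.0% of genes, and 2 were lower, against 48.7%. LOC_Os04g43760 was 5.73-fold and LOC_Os04g43800 3.36-fold lower there. After 24 h, 0 of 7 were higher, against 17.5% of genes, and 2 were lower, against 35.9%, with LOC_Os04g43760 at 5.45-fold and LOC_Os02g41670 at 2.30-fold. The median gene itself moved by −0.22, −0.93, −0.21 and −0.47 (log2) in the 4 treated root libraries. Relative to it LOC_Os02g41630 turned from −0.06 to 0.16 at 20 µM 6 h and from −0.18 to 0.75 and LOC_Os02g41670 from −0.39 to 0.54 at 80 µM 6 h. At 80 µM 24 h LOC_Os02g41680 turned from −0.41 to 0.06 and LOC_Os04g43800 from −0.06 to 0.41. LOC_Os04g43760 stayed below the median gene, by −1.59 and −1.97 at 80 µM and by −0.59 at 20 µM 24 h. It stood above it, by 0.32, at 20 µM 6 h.

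**Figure D4:**
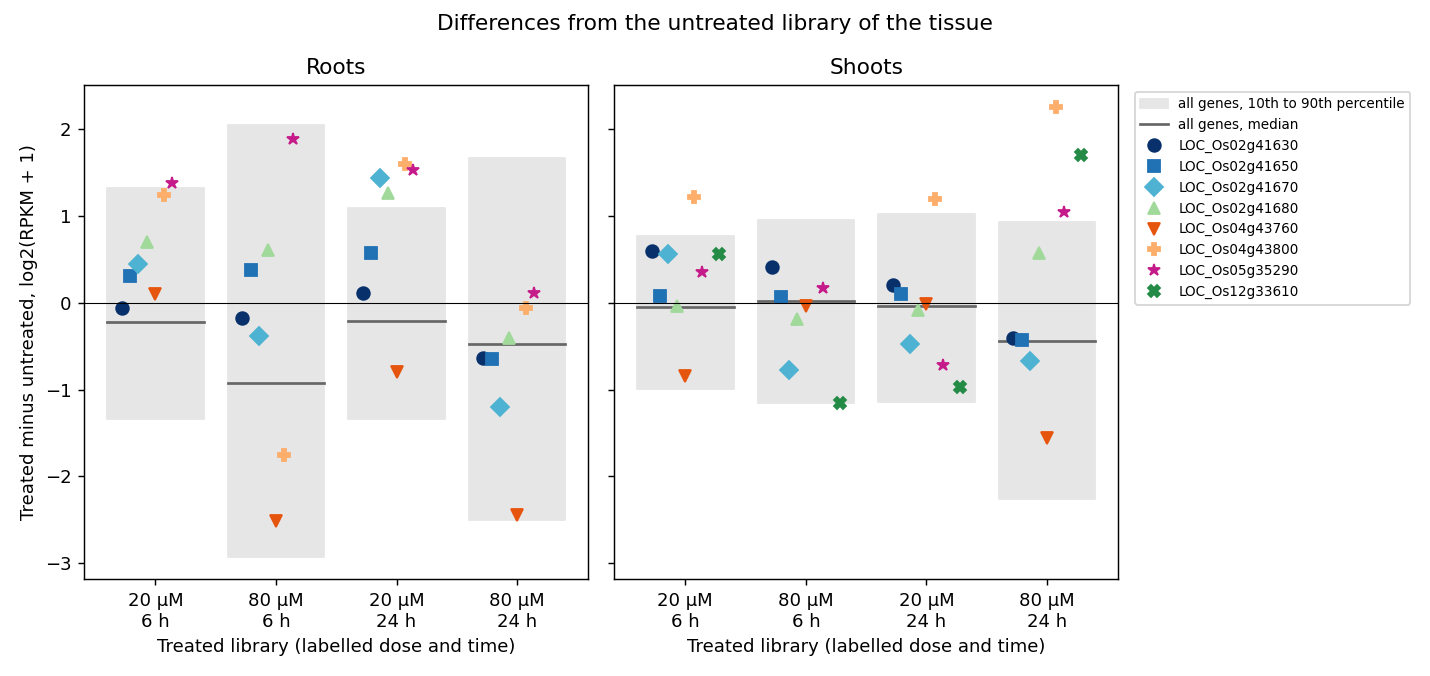
Treated minus untreated difference of log2(RPKM + 1) (vertical axis) in the 4 treated libraries of each tissue (horizontal axis), 1 symbol per member that reached 5 RPKM in either library. Grey boxes span the 10th to 90th percentile of all measured genes and grey lines mark their median; LOC_Os05g35290 lies above the box in roots at both 20 µM libraries and inside it at 80 µM.

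The doses were set against each other at the same labelled hour. In roots at 24 h all 7 measured members stood lower at 80 than at 20 µM, and 6 of 7 were at least 2-fold lower, against 25.4% of genes. The folds ran from 1.67 for LOC_Os02g41630 to 6.23 for LOC_Os02g41670, which went from 332.7 to 52.6 RPKM. Relative to the median gene, which moved by −0.27, the 7 differences ran from −0.47 to −2.36. The clock readouts of this pair were 1.36 and −1.79 and its root markers summed to 838.3 and 15.5 RPKM; their part in the dose difference was not tested.

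In roots at 6 h, with clock readouts of −1.40 and −2.14 and root markers at 421.1 and 7.8 RPKM, 2 of 7 members were at least 2-fold lower at 80 µM, against 38.3% of genes. These were the chromosome 4 loci, LOC_Os04g43800 by 7.95-fold and LOC_Os04g43760 by 6.13-fold. LOC_Os02g41650 (269.2 and 282.7 RPKM) and LOC_Os02g41680 (238.3 and 223.2 RPKM) stood close to each other at the doses, and LOC_Os05g35290 stood 1.42-fold higher at 80 µM. None of the 7 was at least 2-fold higher at 80 µM at either hour in roots, against 15.2% of genes at 6 h and 15.7% at 24 h.

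None of the 8 measured members was at least 2-fold higher or lower in all 4 treated shoot libraries, against 0.5% and 1.47% of genes. LOC_Os04g43760 was below its untreated level in all 4, as were 19.0% of genes, but by only 1.03- and 1.01-fold in the libraries labelled 80 µM 6 h and 20 µM 24 h; relative to the median gene it stood 0.03 (log2) above untreated in the latter. Without the 80 µM 6 h library, the 2-fold rule counted LOC_Os04g43800, which was 2.32-, 2.30- and 4.76-fold higher in the other 3 and stood at 1.3 RPKM in the one left out.

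In the shoot library at 80 µM 24 h, 3 of 8 members were at least 2-fold higher than untreated, against 9.15% of genes, and 1 was lower, against 30.1%. LOC_Os04g43800 was 4.76-fold, LOC_Os12g33610 3.25-fold and LOC_Os05g35290 2.07-fold higher, and LOC_Os04g43760 was 2.93-fold lower. The median gene moved by −0.44 in this library, and relative to it LOC_Os02g41630 and LOC_Os02g41650 turned from −0.41 and −0.43 to 0.03 and 0.01. In the shoot libraries labelled 20 µM 6 h, 80 µM 6 h and 20 µM 24 h the median gene moved by −0.04, 0.03 and −0.04.

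At 80 µM 6 h, 0 of 7 were at least 2-fold higher, against 9.38% of genes, and 1 was lower, against 12.6%: LOC_Os12g33610, by 2.23-fold. In the library labelled 20 µM 6 h, LOC_Os04g43800 was the 1 of 8 at least 2-fold higher, against 6.2% of genes, with 0 lower, against 9.92%. In the one labelled 20 µM 24 h it was again the 1 of 8, against 10.3%, with 0 lower, against 12.3%. LOC_Os12g33610 stood at 65.0 RPKM in the first and 21.8 RPKM in the second of these, the shoot libraries whose clock genes went against their labels. It was highest in the 3 shoot libraries with clock readouts of 3.06 or more, at 43.7, 65.0 and 144.2 RPKM, and at 19.0 and 21.8 RPKM where the readout was −0.03 and −0.02. The leaf markers summed to 1966.2, 2982.3 and 4510.7 RPKM in the first 3 and to 2435.5 and 2524.6 RPKM in the other pair. The part of harvest hour in these levels was not tested.

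Between the doses in shoots at 24 h, 3 of 7 members were at least 2-fold higher at 80 µM, against 14.3% of genes, and 1 lower, against 31.6%. LOC_Os12g33610 was 6.37-fold, LOC_Os05g35290 3.41-fold and LOC_Os04g43800 2.07-fold higher, and LOC_Os04g43760 was 2.90-fold lower. At 6 h, 0 of 8 were higher, against 13.0%, and 3 lower, against 12.0%. These were LOC_Os04g43800 (3.74-fold), LOC_Os12g33610 (3.30-fold) and LOC_Os02g41670 (2.52-fold). Both comparisons rest on a library labelled 20 µM and carry the doubt on its hour.

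In a limma fit over all 10 libraries with tissue and condition as terms, no member was called for treatment, dose or time after Benjamini-Hochberg adjustment over 18667 genes. For treatment, dose and time this fit, which also gave the tissue calls above, called 0 genes of any kind. At an unadjusted limma p under 0.05 there were 756, 1789 and 302 genes for them. The time term was fitted by label and rests in part on the shoot libraries whose clock genes went against their labelled hours. The residual of the fit rests on these libraries as well. The lack of calls for time therefore cannot decide whether members differed between the hours. For treatment the largest differences among members were −1.01 for LOC_Os04g43760, with a 95% interval from −2.31 to 0.29 and an adjusted p of 0.841, and 0.72 for LOC_Os05g35290, with an interval from −0.57 to 2.01 and the same adjusted p. For dose LOC_Os04g43800 had −1.38 (interval −2.52 to −0.23, adjusted p 0.479), LOC_Os02g41670 −1.25 (interval −2.27 to −0.23, adjusted p 0.479) and LOC_Os04g43760 −1.25 (interval −2.41 to −0.09, adjusted p 0.512). For time LOC_Os04g43800 had 1.24 (interval 0.10 to 2.38, adjusted p 1). The median treatment difference was 0.03 over the 8 members tested and −0.30 over all genes. For dose these medians were −0.42 and −0.32.

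Whether roots and shoots differed in their response was tested with effects fitted within each tissue, which leaves 2 residual degrees of freedom. No member was called, nor was any gene, with 1251 genes at an unadjusted p under 0.05 for treatment and 1267 for dose. For LOC_Os05g35290 the treatment difference was 1.23 in roots and 0.21 in shoots, and the interval of their difference ran from −3.93 to 1.89 (adjusted p 0.953). For LOC_Os04g43760 the dose difference was −2.13 in roots and −0.37 in shoots, with an interval of the difference from −0.74 to 4.27 (limma adjusted p 0.798). Intervals this wide leave differences of several fold between the tissues undetected.

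Other genes of the pathway were taken from a list of 39 loci: 6 of phenylalanine supply, 9 of cinnamate hydroxylation and coumarate ligation, 12 of the lignin branch, 6 of the flavonoid branch and 6 wall regulators. Only symbols that RefSeq lists on the same chromosome are printed. Of the loci at 5 RPKM in both tissues, limma called 3 of 5 supply loci, 2 of 4 loci of the middle steps and 3 of 10 lignin loci lower in shoots, and none of these higher, against 9.4% lower and 10.9% higher over all such genes. In the flavonoid branch 1 of 2 was called higher and 0 lower, and of 4 regulators 1 was called higher and 1 lower. No pathway gene was called for treatment, dose or time, as no gene was, and the result for time carries the same doubt on labelled hours.

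4CL5 (LOC_Os08g34790), a 4-coumarate:CoA ligase gene, stood at 61.0 RPKM in untreated roots and at 126.3, 163.6, 205.7 and 86.9 RPKM in treated roots. In shoots it stood at 5.9 to 14.9 RPKM, a mean log2 difference of −3.49 ± 0.42 (SE, limma adjusted p 0.000177). Like LOC_Os05g35290, it was above untreated in all 4 treated root libraries. HCT2 (LOC_Os02g39850), a hydroxycinnamoyl transferase gene of the lignin branch, stood at 88.9 RPKM in untreated roots and at 223.2, 276.3, 157.8 and 121.6 RPKM in treated ones, against 30.1 to 60.9 RPKM in shoots (−1.87 ± 0.36 (SE), limma adjusted p 0.00326). HCT2 was above untreated in all 4 treated root libraries as well. DAHPS2 (LOC_Os07g42960) is the gene for the entry enzyme of the shikimate pathway that supplies phenylalanine. It stood at 198.3 RPKM in untreated roots and at 307.5, 361.7, 332.4 and 190.7 RPKM in treated ones. Like LOC_Os05g35290 and HCT2, DAHPS2 was highest in roots at 80 µM 6 h.

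COMT1 (LOC_Os08g06100), a methyltransferase of lignin precursors, went from 238.1 RPKM in untreated roots to 199.3, 80.7, 192.0 and 61.0 RPKM in treated ones. CAD2 (LOC_Os02g09490), a cinnamyl alcohol dehydrogenase, went from 89.7 RPKM in untreated roots to 86.0, 25.1, 61.0 and 33.2 RPKM. Both were lowest in the 2 root libraries at 80 µM, where LOC_Os04g43760 was lowest as well. 4CL3 (LOC_Os02g08100) stood at 107.9, 130.7, 137.7, 160.6 and 44.8 RPKM in roots and, like LOC_Os02g41630, at levels in shoots that overlapped these, from 39.5 to 93.4 RPKM. HCT1 (LOC_Os04g42250) stood at 27.2 to 55.8 RPKM in roots and 40.5 to 78.4 RPKM in shoots, and CAD7 (LOC_Os04g52280) at 1.3 to 6.7 RPKM in all libraries.

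In shoots CHS1 (LOC_Os11g32650), the chalcone synthase gene that opens flavonoid synthesis, had 87.2 RPKM in the untreated library and 123.3, 51.8, 56.0 and 142.3 RPKM in the treated ones. This is the order of LOC_Os12g33610 over the same 5 libraries, and both were at or under 1.9 RPKM in every root library. CHI (LOC_Os03g60509), for the next enzyme, chalcone isomerase, did not follow that order and stood at 57.7, 75.8, 83.3, 80.2 and 43.8 RPKM in shoots. The likeness of LOC_Os12g33610 and CHS1 was noticed after their values were seen and rests on 5 libraries.

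**Figure D5:**
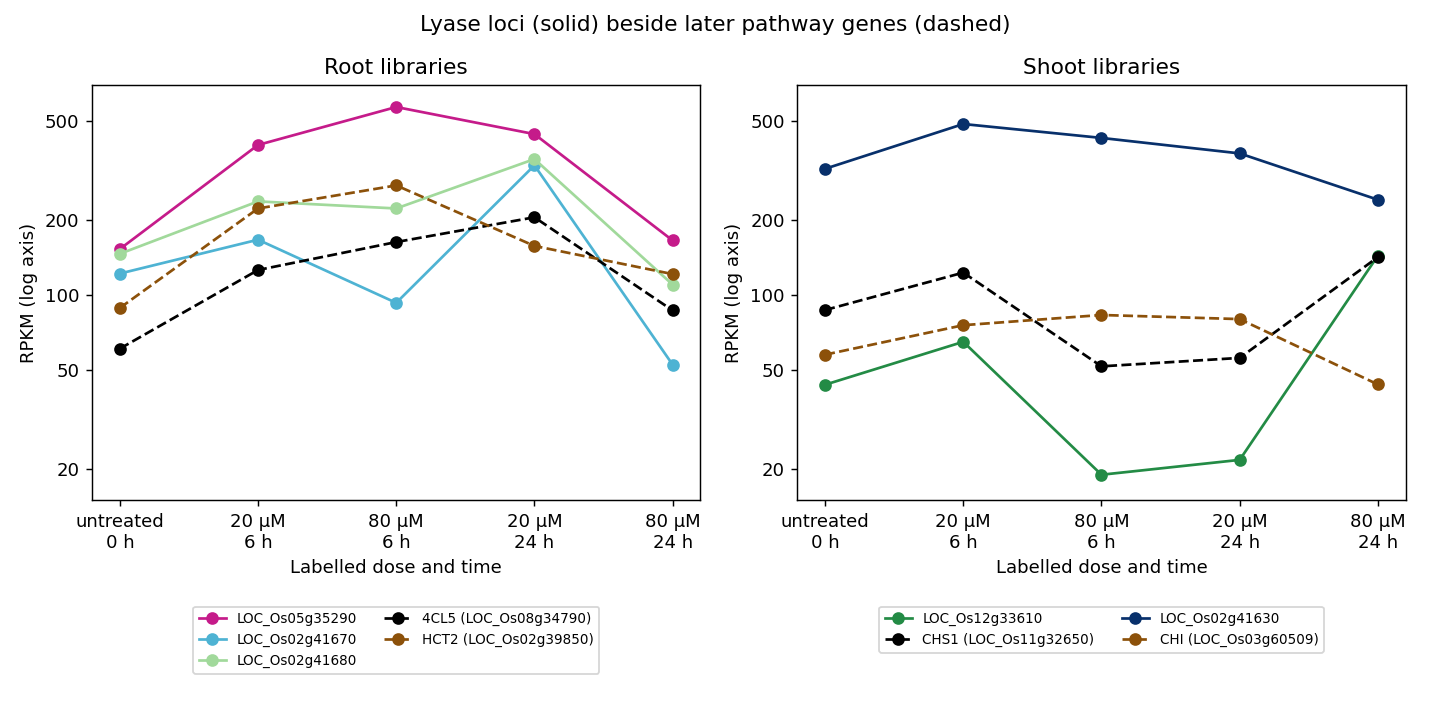
RPKM (vertical log axis) of lyase loci (solid lines) and later pathway genes (dashed lines) in the 5 root libraries (left) and 5 shoot libraries (right), 1 point per library at its labelled dose and time. In roots 4CL5, HCT2 and LOC_Os05g35290 lie above their untreated levels in all 4 treated libraries. In shoots CHS1 and LOC_Os12g33610 are lowest at 80 µM 6 h and highest at 80 µM 24 h.

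Among 11593 other genes at 5 RPKM in at least 5 libraries, those most like the summed lyase level over the 10 libraries were LOC_Os09g37120 (Pearson r 0.967 on the log2 scale) and LOC_Os03g17740 (r 0.9625). LOC_Os03g17740 stood at 42.7, 60.0, 53.8, 76.5 and 36.6 RPKM in roots and at 18.6 to 30.5 RPKM in shoots. LOC_Os09g37120 stood at 7.4 to 183.5 RPKM in roots and at most at 1.4 RPKM in shoots. The libraries fall into the tissues, so the coefficients mostly describe the difference between roots and shoots, and the best of many genes is high by selection.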

How the data were processed

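Each mRNA library came as a deposited table of RPKM, computed by the authors and rounded to 1 decimal, for 57624 MSU loci. BWA was among the tools, per the submitters' processing notes, with its version, the genome build, annotation and counting method not given in the sources used here. TRIzol-extracted RNA passed oligo(dT) beads and was reverse-transcribed from random hexamers, per the labels' protocols. Absolute depth is unknown; low, unequal values of the same genes gave the relative value of 1 read. The miRNA tables were not used. Values were taken as log2(RPKM + 1), which understates changes of low genes, for genes at 5 RPKM or more in at least 1 library compared. Pairs of libraries were described by the 2-fold rule. Models used limma 3.58.1 in R 4.3.3, an intensity trend, Benjamini-Hochberg adjustment over all genes and a threshold of 0.05. On simulated data, changes of 2 (log2) were recovered in 57% of changed genes for tissue, 22.5% for treatment, 41.5% for dose and 35.5% for time. For either difference between tissues 0% were recovered at 2 or 3. At 5, 68.5% were recovered for treatment and 66% for dose. Where changed genes were recovered, 4.3% to 9.9% of calls were false. The p-values of the models measure spread over conditions, not replicates. Named genes were all 9 members, the pathway loci with the highest mean RPKM per step whose symbol RefSeq (ASM3414082v1) lists on the same chromosome, at most 2 per step, and the 2 genes most alike. Members and lists were chosen with earlier results of these data known. Alternatives were other pseudocounts (0.1, 5), filters (none, 10 RPKM), median ratio scaling, no intensity trend, and libraries left out. Python 3.11.15, numpy 2.4.6, pandas 2.3.3 and matplotlib 3.10.9 were used otherwise.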

Additional observations from a re-analysis of the deposited data

How the results depend on the processing

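The 3 calls of members lower in shoots held under all 17 alternatives. The difference of LOC_Os02g41670 ran from −4.60 to −3.68, that of LOC_Os02g41680 from −3.02 to −2.23 and that of LOC_Os05g35290 from −4.91 to −3.92. LOC_Os12g33610 was called higher each time, but it passed the filter through the shoot libraries alone and had to differ. Its difference ran from 3.30 with a pseudocount of 5 to 7.99 with one of 0.1. No alternative called a member for treatment, dose, time or either difference between tissues. Without the shoot libraries labelled 20 µM, neither difference between tissues could be fitted; without an untreated library, the one for treatment could not. Leaving out a treated library, the count of members at least 2-fold higher in all remaining ones ran from 0 to 1 in roots and from 0 to 1 in shoots, and 0 were lower. No paired analysis was possible because each group has 1 library and so no replicate numbers to match; the tissue fit already compares roots and shoots within conditions. With 1 library per group and unknown depth, differences between single libraries have no error.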
